A study of Mus musculus with 12 samples.

Results

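The interleukin-6 family was followed here through 8 genes of the mouse: the ligands Il6, Osm and Lif, the receptor chains Il6ra, Il6st, Osmr and Lifr, and the transcription factor Stat3. They were chosen by name for their known roles, with earlier results of these data known. Each symbol was matched to 1 of the 55414 Ensembl gene identifiers counted. All 8 were found, as Il6 (ENSMUSG00000025746), Osm (ENSMUSG00000058755), Lif (ENSMUSG00000034394), Il6ra (ENSMUSG00000027947), Il6st (ENSMUSG00000021756), Osmr (ENSMUSG00000022146), Lifr (ENSMUSG00000054263) and Stat3 (ENSMUSG00000004040). RNA was sequenced from lung and liver of WT C57BL/6J mice, taken 6 h after surgery, in 4 groups of 3 libraries: lung after CLP, lung after sham surgery, liver after CLP and liver after sham surgery. CLP stands in this field for cecal ligation and puncture, which lets gut contents into the abdomen and serves as a model of polymicrobial sepsis, whereas sham surgery leaves the cecum intact. All groups share the strain, the genotype and the 6 h, and no mutation or drug was part of any group. The whole organ was used, so a difference in the number of cells of a type and a difference in RNA per cell cannot be told apart in any value below.

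Most cytokines of this family signal through a shared receptor chain, gp130, which Il6st encodes. Interleukin-6 first binds the receptor that Il6ra encodes and the pair then recruits gp130, oncostatin M (Osm) acts in the mouse mainly through the chain encoded by Osmr joined to gp130, and leukemia inhibitory factor (Lif) acts through the chain encoded by Lifr joined to gp130. Janus kinases bound to these chains phosphorylate STAT3, which enters the nucleus and induces, in hepatocytes, the acute phase proteins of plasma and, in many cells, its own inhibitor Socs3. Macrophages, neutrophils, endothelium and fibroblasts are known sources of the ligands.

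Total counts per library lay between 11298109 and 13590527 in CLP lung, between 11946233 and 12931365 in sham lung, between 10559895 and 13780640 in CLP liver, and between 12060375 and 15854117 in sham liver. Levels below are in CPM, the field's unit for counts relative to the size of a library, scaled within each organ, so CPM of the 2 organs are not on a common scale. Whether the 3 libraries of a group are 3 mice is not stated in the labels, and p-values then speak only for the spread among libraries. The organ labels were matched by their markers: summed hepatocyte markers came to between 67745 and 106889 CPM in liver libraries and at most 137.6 CPM in lung libraries, and summed alveolar epithelium markers to between 20957 and 27774 CPM in lung libraries and at most 122.2 CPM in liver libraries. Genes were called at an adjusted p of 0.05 (edgeR quasi-likelihood test, Benjamini-Hochberg over all genes tested). After CLP in lung 3698 of 15441 genes tested rose, which is 23.9%, and 3850 fell, which is 24.9%, so that 48.9% were called in either direction. In liver 2647 of 12392 rose, which is 21.4%, and 2600 fell, which is 21.0%, 42.3% in either direction. When libraries were scaled by their totals alone the split was 2977 higher and 4847 lower in lung and 1689 higher and 3796 lower in liver, and the median of all genes then lay at -0.13 and -0.21 on the log2 scale, against -0.03 in lung and -0.01 in liver as scaled here. With upper-quartile scaling the split was 2929 higher and 4946 lower in lung and 2122 higher and 3144 lower in liver.

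In lung 6 of the 8 genes were higher after CLP, 1 was lower and 1 did not pass the test. All 3 ligands rose, Osmr, Il6st and Stat3 rose, Lifr fell, and Il6ra did not pass. In liver 4 were higher, none was lower, 3 did not pass, and Lif was too low to be tested: Il6, Osm, Osmr and Stat3 rose. All 7 liver differences tested with edgeR were positive, so 0 were lower at an unadjusted p under 0.05 as well, and DESeq2 and limma-voom also called 0 lower. Il6 in lung, and Il6 and Osm in liver, passed the filter on low counts through their CLP libraries alone. Among the members with at least 10 counts in every sham library, 5 of 7 rose and 1 fell in lung, and 2 of 5 rose in liver. CLP and sham libraries of 28.6% of genes tested in lung stood apart with CLP higher, and of 31.1% with CLP lower. In liver these shares were 28.1% and 27.6%.

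**Figure D1:**
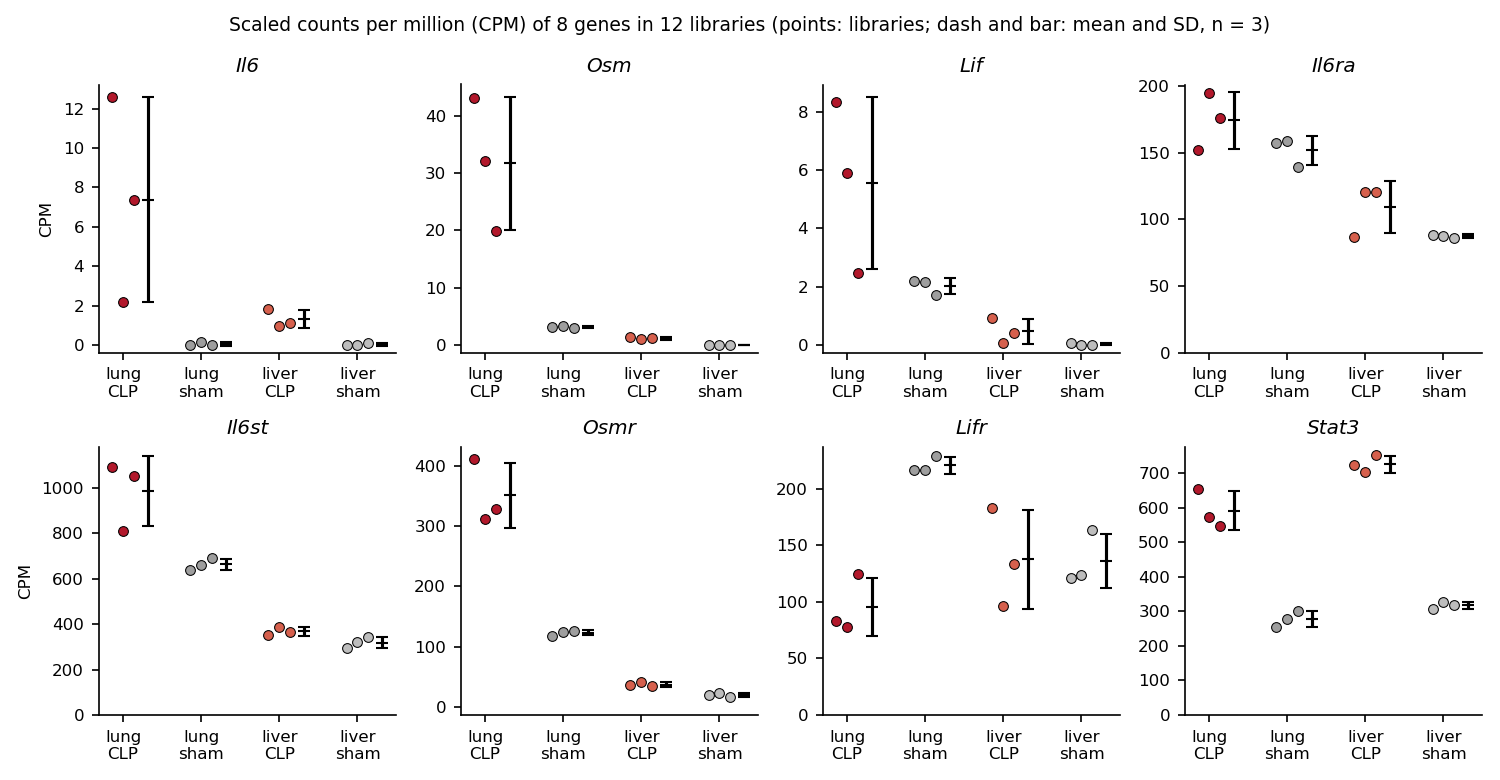
Level of each of the 8 genes in every library, as CPM scaled within each organ, with 1 panel for each gene and CLP left of sham in lung and in liver; points are libraries, and the dash and bar beside them are the mean and SD (n = 3). Il6 and Osm stand near or at 0 in sham liver, Osmr and Stat3 are higher in every CLP library of both organs, and Lifr is lower in every CLP library of lung.

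Per length the ligands were the rarest transcripts of the family after sham surgery, and in lung Il6 and Osm showed the widest differences of all 8 genes. In lung Il6 was at 12.6, 2.19 and 7.37 CPM in the CLP libraries, against 0, 0.150 and 0 CPM in the sham libraries, which come to 162, 27 and 81 counts against 0, 2 and 0 counts. Every CLP library was above every sham library, and the CLP libraries differed widely among themselves. The summed counts, 270 against 2, gave a ratio on library totals of 135 with a 95% exact interval of 37.1 to 1124, which covers counting error only, and edgeR called the rise (adjusted p = 0.00205). Without CLP replicate 1, the library with the highest Il6, the ratio was 84.8, and without sham replicate 3 it was 89.3. Without sham replicate 2, the single sham library with any count, no such ratio could be formed and edgeR gave an adjusted p of 0.0177.

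Osm, a product of neutrophils, macrophages and activated T cells, was the most abundant of the 3 ligand transcripts in lung per length. Its lung values were 43.1, 32.2 and 19.8 CPM in CLP libraries, against 3.09, 3.37 and 2.99 CPM in sham libraries. The sham libraries were close together, and the lowest CLP library was well above them. The log2 fold change was 3.33 ± 0.30 (SE), a 10.1-fold rise, with an adjusted p of 0.000188 from edgeR.

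Lif, which is known for keeping embryonic stem cells undifferentiated and is also made by injured epithelium and stroma, was at 8.32, 5.91 and 2.46 CPM in CLP lung, against 2.19, 2.17 and 1.72 CPM in sham lung. The lowest CLP library stood just above the highest sham library. The log2 fold change was 1.46 ± 0.41 (SE), 2.76-fold, with an adjusted p of 0.0204 from edgeR. The Lif call did not hold without CLP replicate 1 (adjusted p = 0.0630 from edgeR), or without sham replicate 1 (0.0560), sham replicate 2 (0.0591) or sham replicate 3 (0.0742).

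In liver the ligands were scarce in both groups. Il6 was at 1.85, 0.963 and 1.13 CPM in CLP libraries, against 0, 0 and 0.120 CPM in sham libraries, which is 47 counts in all against 2. The ratio of summed counts was 25.7 with an exact 95% interval of 6.73 to 218, and edgeR called the rise with an adjusted p of 0.00159. Without sham replicate 3, the only sham library with any count, the sham group was at 0 and the adjusted p was 0.00430.

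Osm in liver was at 1.46, 0.963 and 1.13 CPM in CLP libraries and at 0 in all 3 sham libraries. Its 42 counts in CLP libraries make it at least 15.3-fold higher than a floor of 3 counts over the sham group, which is 0.0728 CPM, and edgeR gave an adjusted p of 0.00101. Lif had 12, 1 and 4 counts in CLP liver and 1, 0 and 0 counts in sham liver, a ratio of 18.6 with an exact interval of 2.91 to 777, and received no test of its own. Its ratio was 8.63 without CLP replicate 1 and 11.4 without sham replicate 3. All 3 ligands thus rest on at most 24 counts in any liver library.

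The known inducible elements of the Il6 gene lie just before its start, and the letters of the promoter are shown for the ligands whose transcripts rose and whose promoter is in the RefSeq table (GRCm38.p6), with 250 bases before the start on the strand of the gene. Capitals mark the motif matches that a search of both strands found, and in the order printed they are AP-1, CRE motif, C/EBP and NF-kB in Il6 and AP-1 in Lif.
Il6, chr5:30012864-30013113, plus strand: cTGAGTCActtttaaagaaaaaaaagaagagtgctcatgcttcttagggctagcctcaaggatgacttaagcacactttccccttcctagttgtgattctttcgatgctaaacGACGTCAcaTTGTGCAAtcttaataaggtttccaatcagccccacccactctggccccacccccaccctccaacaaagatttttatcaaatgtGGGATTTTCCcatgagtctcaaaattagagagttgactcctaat
Lif, chr11:4257318-4257567, plus strand: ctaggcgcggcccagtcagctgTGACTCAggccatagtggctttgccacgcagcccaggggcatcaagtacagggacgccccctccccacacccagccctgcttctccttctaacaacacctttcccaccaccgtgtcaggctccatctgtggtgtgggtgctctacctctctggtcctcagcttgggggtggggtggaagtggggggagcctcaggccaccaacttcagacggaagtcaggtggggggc
The Il6 promoter held TGAGTCA, a match to the AP-1 motif TGANTCA, with its first base 249 bases before the start. It held GACGTCA, the reverse complement of the CRE motif TGACGTC, at 137 bases, TTGTGCAA, a match to the C/EBP motif TTGNNCAA, at 128 bases, and GGGATTTTCC, a match to the NF-kB motif, at 44 bases. The Lif promoter held TGACTCA, an AP-1 match, at 228 bases. None of these matches overlaps another. Over 32851 mouse promoters cut to the same 250 bases, 6.75% held the AP-1 motif, 3.9% the NF-kB motif, 5.65% the C/EBP motif and 2.78% the CRE motif. The STAT motif TTCNNNGAA was in 7.02% of them and in 0 of the 8 promoters that 7 of the 8 genes have in the table, which holds a pair for Lifr. The 4 receptor genes and Stat3 had no match to any of the 5 motifs in this window. In the same RefSeq annotation Osm and Lif are neighbours on chromosome 11, with no start of a protein-coding gene between them, and Osmr and Lifr are neighbours on chromosome 15 in the same way.

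Markers of neutrophils and monocytes rose with the ligands, and those of Kupffer cells, the resident macrophages of liver, fell in liver. Over all genes tested 23.9% rose and 24.9% fell in lung, and 21.4% rose and 21.0% fell in liver. All 10 neutrophil markers rose in lung, with sums of 6297 to 8933 CPM after CLP and 926.2 to 1068 CPM after sham. In liver all 9 of the 10 that were tested rose, at 158.3 to 216.2 CPM after CLP and 17.5 to 19.7 CPM after sham. A marker near 0 in sham liver passes the filter on low counts only through its CLP libraries. Trem1 is such a marker (0.336 CPM after sham, 4.31 CPM after CLP). For these a rise was likely once they were tested, which limits the comparison of liver marker counts with all genes. Of 8 monocyte markers, 8 rose in lung (1745 to 2315 CPM in CLP libraries, 822.0 to 1015 CPM in sham libraries) and 6 in liver (55.8 to 59.3 CPM in CLP libraries, 12.9 to 15.9 CPM in sham libraries). Of 7 Kupffer cell markers 5 fell in liver, with sums of 125.6 to 157.1 CPM after CLP and 279.7 to 331.2 CPM after sham. Of 8 markers of tissue macrophages 2 rose and 4 fell in liver, where the sums overlapped (245.5 to 331.2 CPM after CLP, 261.6 to 285.0 CPM after sham), and 5 rose in lung (581.8 to 645.2 CPM after CLP, 427.8 to 467.7 CPM after sham). The count in lung was 3 without CLP replicate 1, sham replicate 1 or sham replicate 3, and 2 without sham replicate 2, with upper-quartile scaling or with library totals alone. Of 8 T cell markers 6 rose in lung (54.6 to 87.4 CPM after CLP, 19.7 to 26.6 CPM after sham). Only 2 of them could be tested in liver, where 1 rose and 1 fell. No T cell marker fell in liver with no low-count filter, with DESeq2 or with the replicate block. The same held when CLP replicate 1, 2 or 3, or sham replicate 2 or 3, was left out. No T cell marker rose in liver without CLP replicate 1 or without sham replicate 3. None of these markers was at 0 in all libraries of a group. Among CLP lung libraries replicate 3 had both the lowest neutrophil sum and the lowest Osm and Lif, whereas replicate 2 had the highest neutrophil sum and replicate 1 the highest level of all 3 ligands. The part of these cells in the ligand values was not tested.

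The shared chain and the chain for oncostatin M rose in lung, and the chain for Lif fell there. Osmr was at 411.4, 311.8 and 328.9 CPM in CLP lung, against 118.7, 124.7 and 126.1 CPM in sham lung. The groups were far apart, and the log2 fold change was 1.51 ± 0.12 (SE), 2.85-fold, with an adjusted p of 7.59e-05 from edgeR. In liver Osmr was at 35.9, 41.7 and 34.8 CPM after CLP, against 20.1, 23.6 and 17.5 CPM after sham. These groups did not overlap either, and the log2 fold change was 0.88 ± 0.13 (SE), 1.84-fold, with an adjusted p of 0.00126 from edgeR.

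Il6st encodes the chain that the products of Il6, Osm and Lif all need. It was at 1094, 809.6 and 1052 CPM in CLP lung, against 639.2, 660.7 and 689.7 CPM in sham lung. The rise of 0.57 ± 0.13 (SE) on the log2 scale, 1.49-fold, had an adjusted p of 0.00668 from edgeR. In liver it was at 350.8, 386.9 and 366.4 CPM after CLP, against 293.4, 319.4 and 343.1 CPM after sham. The liver groups stood apart by a small gap, and the difference of 0.21 ± 0.11 (SE) on the log2 scale did not pass the test (adjusted p = 0.176, edgeR).

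Lifr was at 82.9, 78.0 and 125.0 CPM in CLP lung, against 216.2, 216.4 and 229.0 CPM in sham lung, so that the highest CLP library was far below the lowest sham library. It fell by 1.21 ± 0.17 (SE) on the log2 scale, to a level 2.32-fold lower, with an adjusted p of 0.00104 from edgeR. In liver Lifr was at 182.6, 96.3 and 133.3 CPM after CLP, against 121.1, 123.5 and 163.8 CPM after sham. CLP liver held both the highest and the lowest library, and the difference was 0.01 ± 0.23 (SE) on the log2 scale with an adjusted p of 0.969 from edgeR. Under library totals alone this value was -0.18 and under upper-quartile scaling -0.08.

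Markers of structural cells of the lung were read beside the receptor chains. Over all genes tested in lung 23.9% rose and 24.9% fell. Of 8 endothelial markers 6 fell in lung, where their summed level was 3095 to 3349 CPM after CLP and 3770 to 4119 CPM after sham. Of 6 mesothelial markers 3 fell in lung, at 156.8 to 197.7 CPM after CLP and 229.8 to 277.0 CPM after sham. Of 8 alveolar epithelium markers 2 fell in lung, near the share of all genes, at 20957 to 24563 CPM after CLP and 25861 to 27774 CPM after sham. With upper-quartile scaling or library totals alone 4 of them fell. Of 8 fibroblast and stellate cell markers 1 rose and 1 fell in lung, at 1794 to 2136 CPM after CLP and 1703 to 2110 CPM after sham. None of these markers was at 0 in all libraries of a lung group, and their part in the values of Lifr and Osmr was not tested.

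Il6ra, the chain that gives a cell its response to interleukin-6 and that is abundant on hepatocytes and some leukocytes, was at 151.9, 194.6 and 176.2 CPM in CLP lung, against 157.5, 158.6 and 139.2 CPM in sham lung. The groups overlapped, and the difference of 0.20 ± 0.11 (SE) on the log2 scale did not pass the test (adjusted p = 0.158, edgeR). In liver it was at 86.9, 120.4 and 120.3 CPM after CLP, against 88.6, 87.9 and 86.1 CPM after sham. CLP replicate 1 lay among the sham libraries, and the other CLP libraries were above them. The log2 difference was 0.32 ± 0.14 (SE) with an adjusted p of 0.0918 from edgeR, and without CLP replicate 1 it was 0.47 with an adjusted p of 0.0120. The exons of Il6ra overlap those of Gm42809 on the other strand, which had between 2 and 8 counts in each library.

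Stat3, the transcription factor on which these receptors converge and which is known to act on its own gene, rose in both organs. It was at 654.8, 574.2 and 547.3 CPM in CLP lung, against 254.3, 276.9 and 300.3 CPM in sham lung. In liver it was at 724.3, 702.4 and 752.1 CPM after CLP, against 307.5, 328.5 and 317.8 CPM after sham. Neither organ had an overlap between its groups. The log2 fold change was 1.10 ± 0.11 (SE), 2.14-fold, in lung (adjusted p = 0.000175, edgeR), and 1.19 ± 0.11 (SE), 2.28-fold, in liver (adjusted p = 0.000130, edgeR). The exons of Stat3 overlap those of Stat5a on the other strand, and the strand setting of the counting is not given in the sources used here. Stat5a was at 42.9, 42.2 and 31.0 CPM in CLP lung, against 18.5, 19.5 and 18.6 CPM in sham lung, and averaged 14.0 ± 1.11 CPM in CLP liver and 11.1 ± 0.567 CPM in sham liver (SD, n = 3 each).

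**Figure D2:**
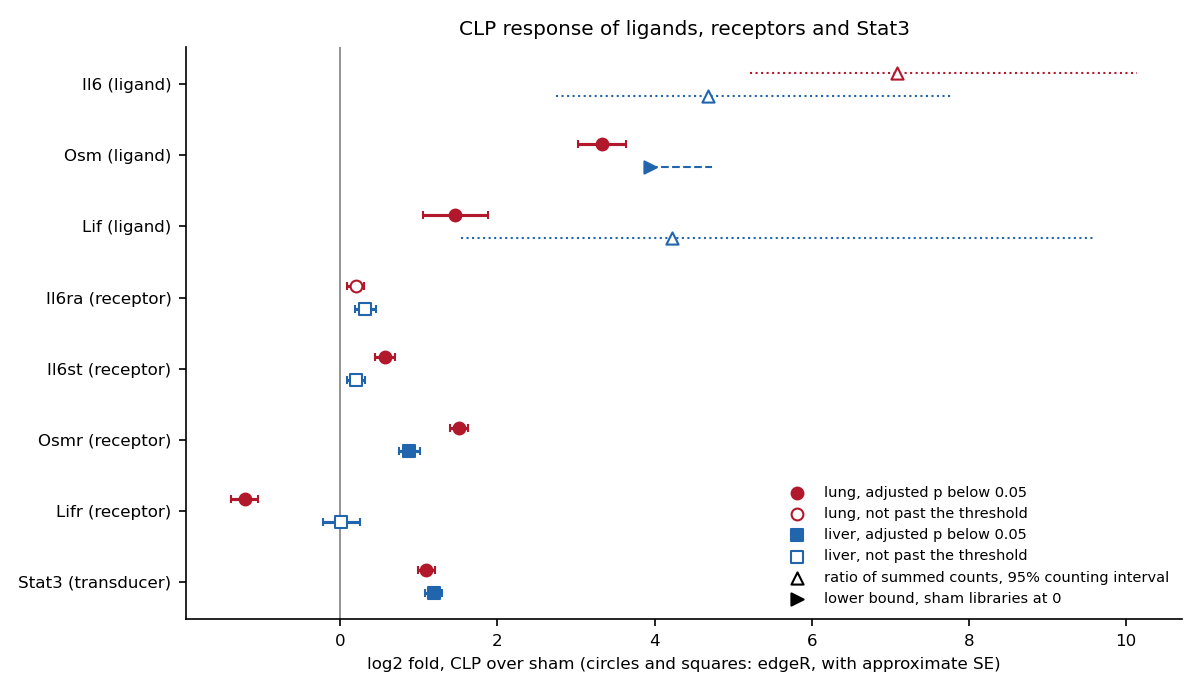
Log2 change of each gene after CLP against sham in lung and in liver, ordered by role, with bars for the standard error of the edgeR fit; genes whose sham libraries were near 0 are drawn as the ratio of summed counts with its 95% counting interval, or as a lower bound where sham was at 0. Il6 in lung lies farthest to the right, with a ratio of 135, Stat3 lies at 1.10 in lung and 1.19 in liver, and Lifr lies at -1.21 in lung and 0.01 in liver.

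Set side by side by role in lung, the ligands had log2 fold changes between 1.46 and 6.92 and the receptor chains between -1.21 and 1.51, with medians of 3.33 and 0.39, and the median of all genes tested was -0.03. In liver the receptor chains lay between 0.01 and 0.88 with a median of 0.26, against -0.01 for all genes tested. The upper end of the ligand range, 6.92, is Il6, which had 2 counts in all of sham lung. Il6 passed the filter on low counts through its CLP libraries alone, so that end is uncertain. The ranges of ligands and receptor chains in lung overlapped at their ends, since Osmr (1.51) stood above Lif (1.46).

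Levels of different genes were set against each other per kilobase of exon (CPM per kb). After CLP in lung the order of levels was Il6st (88.8 ± 13.9), Stat3 (62.1 ± 5.87), Osmr (29.0 ± 4.40), Il6ra (20.2 ± 2.48), Osm (14.0 ± 5.12), Lifr (8.84 ± 2.40), Il6 (3.04 ± 2.14) and Lif (1.28 ± 0.678), each in CPM per kb with the SD of 3 libraries. In sham lung the order of levels was Il6st (59.8 ± 2.29), Stat3 (29.1 ± 2.42), Lifr (20.5 ± 0.679), Il6ra (17.6 ± 1.26), Osmr (10.2 ± 0.326), Osm (1.39 ± 0.0870), Lif (0.466 ± 0.0618) and Il6 (0.0206 ± 0.0356), in the same unit. Lifr thus stood just below Stat3 in sham lung and below Osm in CLP lung, and Osmr stood below Il6ra in sham lung and just below Stat3 in CLP lung. In CLP lung the neighbours Il6ra and Osm, Osm and Lifr, and Il6 and Lif differed by less than their summed SDs, and the other neighbours, as well as all neighbours in sham lung, differed by more.

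In liver the order of levels per kilobase began with Stat3 in both groups. After CLP it was Stat3 (76.2 ± 2.61), Il6st (33.2 ± 1.63), Lifr (12.8 ± 4.02), Il6ra (12.6 ± 2.24), Osmr (3.09 ± 0.307), Il6 (0.541 ± 0.193), Osm (0.521 ± 0.112) and Lif (0.108 ± 0.0976), in CPM per kb with SD, n = 3. After sham it was Stat3 (33.4 ± 1.10), Il6st (28.7 ± 2.24), Lifr (12.6 ± 2.23), Il6ra (10.1 ± 0.150), Osmr (1.68 ± 0.252), Il6 (0.0164 ± 0.0285), Lif (0.00557 ± 0.00965) and Osm (0). Lifr and Il6ra, and Il6 and Osm, did not differ beyond their spread in CLP liver, and in sham liver each ligand rested on at most 2 counts in all. The union of Osmr exons is 12113 bases long and its longest transcript 5491 bases. With the longest transcript as length its level was 63.9 CPM per kb in CLP lung, 22.4 in sham lung, 6.83 in CLP liver and 3.72 in sham liver, which puts Osmr above Il6ra in sham lung.

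**Figure D3:**
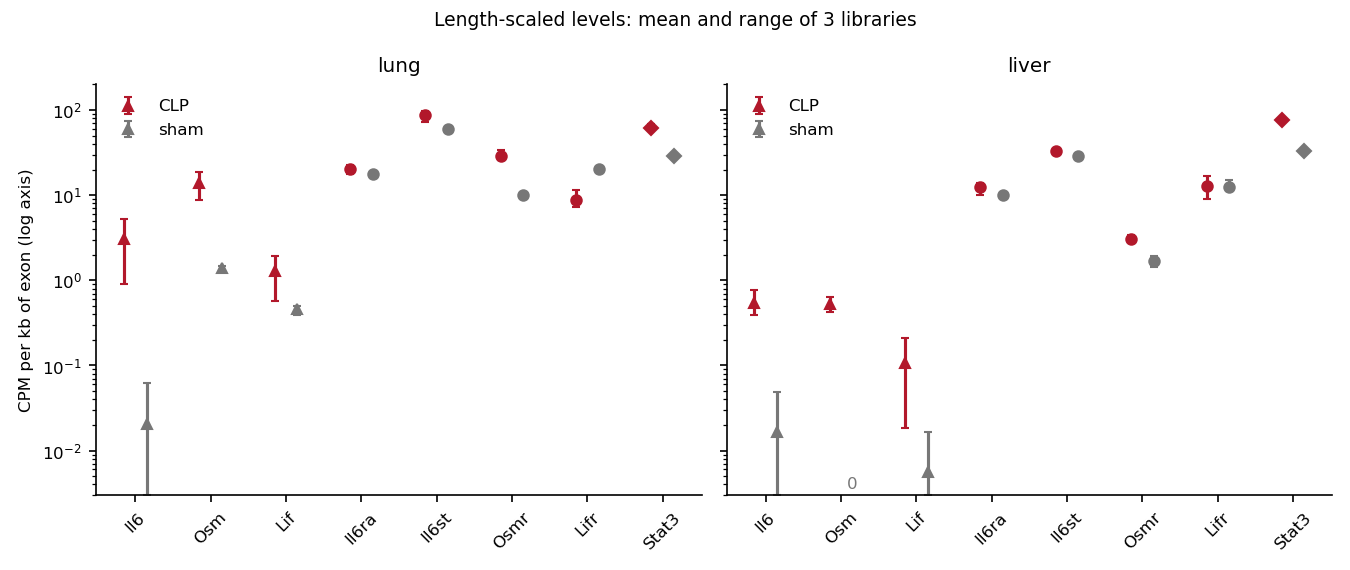
Mean level of the 8 genes per kilobase of exon (CPM per kb, log axis) in each of the 4 groups, with CLP left of sham in each organ, bars from the lowest to the highest of 3 libraries, and a 0 where no library had a count. Il6st leads in lung and Stat3 in liver, and the ligands lie lowest in both sham groups.

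The response of the 2 organs was compared in 1 fit of 12 libraries, as the log2 change in lung minus that in liver. Of 16111 genes tested, 17.7% differed between organs, 8.89% with a higher value in lung and 8.84% with a lower one, and library totals alone gave 1861 higher and 965 lower calls, against 1432 higher and 1424 lower as scaled here. Osmr rose further in lung, by 0.60 ± 0.18 (SE) on the log2 scale (adjusted p = 0.0391, edgeR). Lifr, which fell in lung and was at 0.01 in liver, had a difference of -1.25 ± 0.31 (SE) and an adjusted p of 0.0156. The differences of Il6st (0.34 ± 0.18, adjusted p = 0.239), Il6ra (-0.15 ± 0.18, adjusted p = 0.647) and Stat3 (-0.12 ± 0.16, adjusted p = 0.668) did not pass. Those of Il6 (adjusted p = 0.627), Osm (0.0972) and Lif (0.269) did not pass either and depend on sham counts at or near 0 in liver.
The Osmr call was lost without CLP replicate 1 of lung (adjusted p = 0.0844, edgeR) and in 6 of the other 11 fits that left out 1 library, and the Lifr call without sham replicate 1 or 2 of liver (adjusted p = 0.0578 and 0.0582).

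Levels were set between organs in the same fit as lung minus liver. After CLP, Osm (log2 difference 3.35, adjusted p = 1.39e-06, edgeR), Lif (2.15, adjusted p = 0.00412) and Osmr (1.84, adjusted p = 2.04e-08) were higher in lung. Stat3 (-1.68, adjusted p = 1.49e-08), Lifr (-1.92, adjusted p = 4.90e-06) and Il6ra (-0.71, adjusted p = 0.000196) were lower in lung after CLP, and Il6 (1.09, adjusted p = 0.0961) and Il6st (0.03, adjusted p = 0.815) did not pass. After sham, Lif (4.81, adjusted p = 0.00136) and Osmr (1.24, adjusted p = 1.16e-06) were higher in lung, as was Osm, which had 0 counts in sham liver, and Stat3 (-1.56, adjusted p = 2.82e-08), Lifr (-0.66, adjusted p = 0.0139), Il6ra (-0.56, adjusted p = 0.00123) and Il6st (-0.30, adjusted p = 0.0455) were lower in lung. The sham difference of Il6st was called in 10 of 19 alternatives, of which library totals alone gave the opposite direction, with an adjusted p of up to 0.718, and that of Lif, with 1 count in all of sham liver, ran from 4.17 to 7.19 when 1 library was left out. Over all genes tested 44.7% were higher and 36.3% lower in lung after CLP, and 44.4% and 36.5% after sham, so calls of this kind were common. These levels depend on the scaling between organs. The scaling factors were 1.53 to 1.66 in lung and 0.576 to 0.713 in liver, and on library totals alone the median of all genes was 1.648 after CLP and 1.497 after sham. On that scale Il6ra was higher in lung after CLP (0.72) and after sham (0.75), and Il6st (1.01) and Lifr (0.65) were higher in lung after sham, whereas Osm, Lif and Osmr stayed higher and Stat3 lower. After CLP on that scale Il6 (2.51, adjusted p = 0.000855) and Il6st (1.47, adjusted p = 7.13e-08) were higher in lung and Lifr did not pass (-0.48, adjusted p = 0.0579).

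Ratios of receptor chains within a library do not depend on scaling. The ratio of Osmr counts to Il6st counts was 0.376, 0.385 and 0.313 in CLP lung, against 0.186, 0.189 and 0.183 in sham lung, a 1.92-fold higher ratio. Lifr counts came to 0.0758, 0.0964 and 0.119 of Il6st counts in CLP lung, against 0.338, 0.328 and 0.332 in sham lung, a log2 difference of -1.80. In liver the ratio of Osmr to Il6st was 0.103, 0.108 and 0.0951 after CLP, against 0.0688, 0.0739 and 0.0510 after sham, 1.59-fold higher. Each of these 3 comparisons separated the groups fully, with an exact two-sided permutation p of 0.1, the smallest that 3 against 3 libraries allow, and 0.2 after adjustment over 6 ratios, so none could pass 0.05. The ratio of Il6ra to Il6st overlapped between the groups in lung (log2 difference -0.37, exact permutation p = 0.3) and in liver (0.09, exact permutation p = 0.6), as did Lifr to Il6st in liver (-0.23, exact permutation p = 0.6), which was 0.04 without CLP replicate 2.

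**Figure D4:**
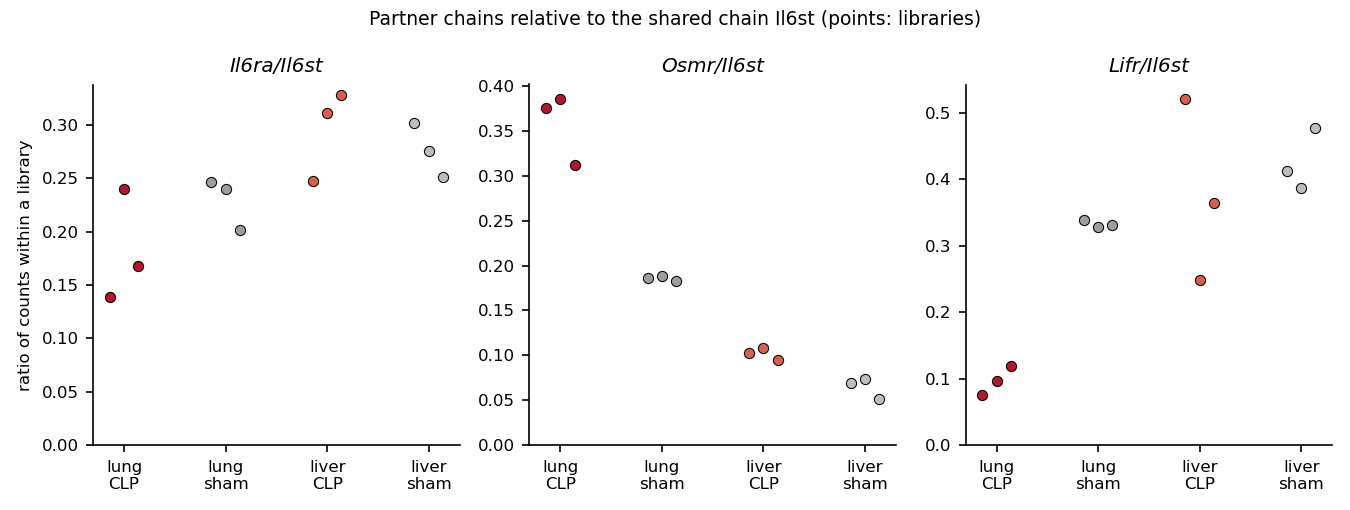
Ratio of the counts of Il6ra, Osmr and Lifr to those of Il6st in every library (no unit), with CLP left of sham in each organ; points are libraries. In lung Osmr to Il6st lies at 0.313 to 0.385 after CLP and at 0.183 to 0.189 after sham, and Lifr to Il6st at 0.0758 to 0.119 after CLP and at 0.328 to 0.338 after sham.

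Other genes of the pathway were read from 8 lists, which were chosen with earlier results of these data known. Over all genes tested 23.9% rose and 24.9% fell in lung, and 21.4% rose and 21.0% fell in liver. Of 9 other ligands of the family, 2 rose and 2 fell among 6 tested in lung, with a median log2 change of 0.08. Those that rose, Ebi3 and Il27, form the cytokine IL-27. Ebi3 averaged 38.5 ± 12.6 CPM in CLP lung and 2.40 ± 0.582 CPM in sham lung. Il27 averaged 4.72 ± 2.08 CPM in CLP lung and 0.181 ± 0.0924 CPM in sham lung (log2 fold change 4.65). Il27 passed the filter on low counts through its CLP libraries alone. A rise was therefore likely once it was tested, and its size is uncertain. In liver 2 of 3 tested rose, Ebi3 (2.74) and Clcf1 (1.63). The same limit holds there for Ebi3, which averaged 0.471 ± 0.245 CPM in sham liver. Of 4 other receptors, Il27ra rose (0.80) and Il11ra1, the receptor of interleukin-11, fell (-0.53) among 3 tested in lung, and Il11ra1 alone fell (-0.49) in liver. The Il27ra call was lost without CLP replicate 1 or sham replicate 2 of lung, and the liver call of Il11ra1 when any 1 of the 6 liver libraries was left out.

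Of 10 Janus kinases and other STATs, 7 rose and 2 fell in lung, with a median of 0.71, and in liver 4 rose and 1 fell of 9 tested, with a median of 0.33. Jak2 averaged 167.3 ± 16.9 CPM in CLP lung and 91.8 ± 1.03 CPM in sham lung (log2 fold change 0.87), and 35.1 ± 3.18 CPM in CLP liver and 12.7 ± 1.20 CPM in sham liver (1.47). Stat5b fell in lung (-0.41), and Tyk2, a kinase that also binds gp130, fell in lung (-0.32) and in liver (-0.59). In both organs the Tyk2 call was lost without CLP replicate 3, sham replicate 1 or sham replicate 3. The lung call of Tyk2 was also lost in the fit of all 12 libraries. Of 12 brakes on the pathway, 7 rose and 2 fell in lung (median 0.49), and 5 rose and 1 fell of 11 tested in liver (median 0.39). Socs3, the inhibitor that binds gp130, averaged 526.1 ± 119.5 CPM in CLP lung and 53.8 ± 5.19 CPM in sham lung (log2 fold change 3.29), and 321.5 ± 18.9 CPM in CLP liver and 72.0 ± 10.8 CPM in sham liver (2.16). Socs1, which inhibits Janus kinases, averaged 7.97 ± 1.16 CPM in CLP lung and 1.01 ± 0.426 CPM in sham lung (2.95), and 36.7 ± 5.57 CPM in CLP liver and 0.847 ± 0.0600 CPM in sham liver (5.43). Pias3, an inhibitor of STAT3, fell in lung (-0.60) and in liver (-1.18).

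A list of 5 genes covers the shedding of Il6ra from the cell surface, which lets soluble receptor carry interleukin-6 to cells without it. The protease gene Adam17 rose in liver, at 42.2 ± 5.81 CPM after CLP and 20.4 ± 1.78 CPM after sham (log2 fold change 1.05), and in lung by 0.45, a call that was lost in 5 of the 6 fits that left out 1 library. Rhbdf2, which carries the protease to the surface, rose in both organs (1.62 in lung, 1.17 in liver). In all, 2 rose and 1 fell in lung (median 0.10), the lower gene being Frmd8 (-0.26), called in 7 of 14 alternatives, and 3 rose in liver (median 0.72), of which Rhbdf1 was not called in 4 of the 6 fits that left out 1 library.

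Of 14 transcription regulators and survival genes known to respond to STAT3, all 14 rose in lung, with a median of 1.79, and 12 rose in liver, with a median of 1.89. Pim1, a survival kinase, averaged 219.4 ± 39.5 CPM in CLP lung and 42.4 ± 7.18 CPM in sham lung (log2 fold change 2.37), and Cebpb, a regulator of acute phase genes, 161.5 ± 6.46 CPM in CLP liver and 47.5 ± 5.36 CPM in sham liver (1.76). Of 28 acute phase genes, 17 of 25 tested rose in lung and none fell (median 1.22), and in liver 17 rose and 1 fell (median 0.52). In liver Steap4 averaged 10810 ± 782.1 CPM after CLP and 1524 ± 528.5 CPM after sham (log2 fold change 2.83), Crp 1050.0 ± 47.0 CPM after CLP and 490.5 ± 42.6 CPM after sham (1.10), and Saa4, a serum amyloid with a steady plasma level, fell by 0.46. The liver count was 11 without sham replicate 3. In lung Saa3, another serum amyloid, averaged 1281 ± 334.6 CPM after CLP and 6.63 ± 3.09 CPM after sham (7.60). Saa3 rose in liver too, at 3005 ± 1189 CPM after CLP and 130.7 ± 97.8 CPM after sham (4.52). A list of 17 genes upstream of Il6 holds inducers and sensors, and also Nfkbia, Zc3h12a and Zfp36, which restrain Il6. All 17 rose in lung (median 2.32) and 16 in liver (median 1.96). Among them were Il1b in lung (3.16) and Cd14 in liver (6.20). Arid5a, whose product stabilises Il6 mRNA, rose in both (2.32 in lung, 3.25 in liver). Many of these genes also respond to other cytokines and to bacterial products, and the part of the interleukin-6 family in them was not tested.

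**Figure D5:**
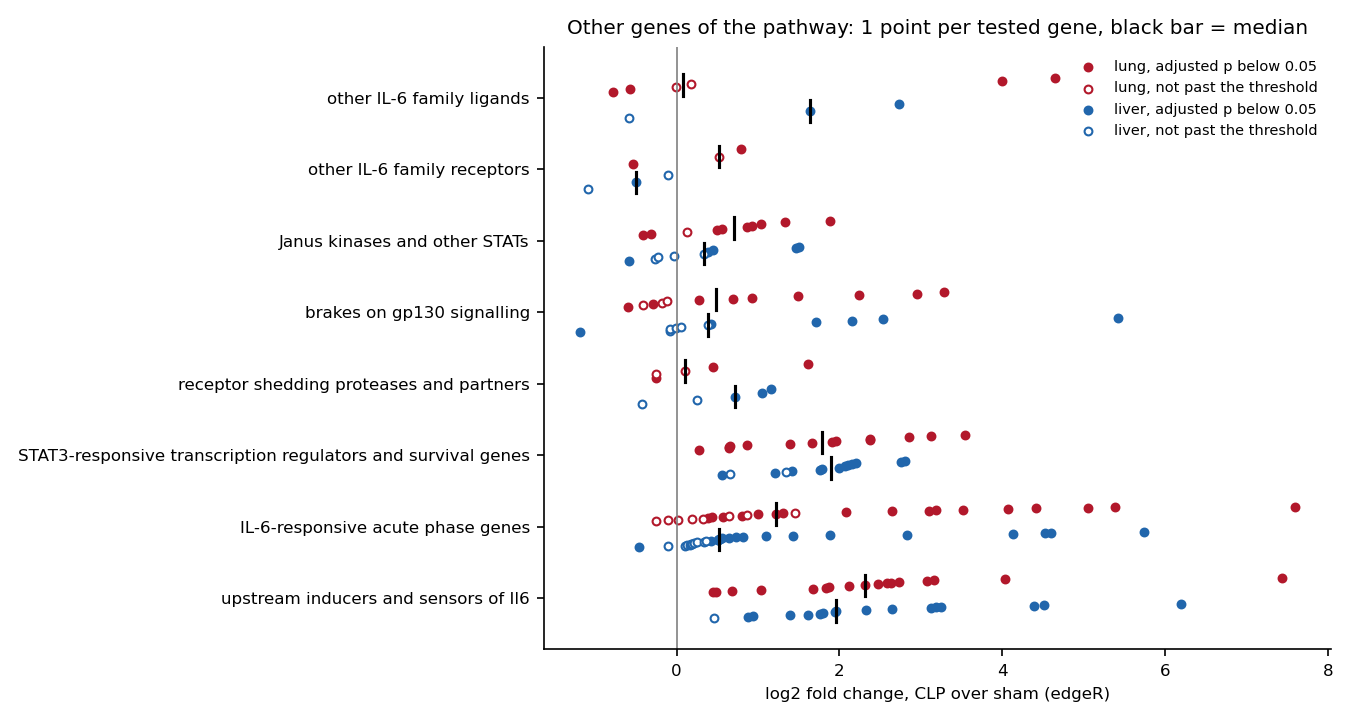
Log2 change after CLP against sham of every tested gene in the 8 pathway lists, in lung and in liver, with filled points for genes past an adjusted p of 0.05 and a bar at the median of each list. All 14 STAT3-responsive genes and all 17 genes upstream of Il6 lie above 0 in lung. The other receptors and the shedding genes lie around 0 there with medians of 0.52 and 0.10.

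The protein-coding genes whose pattern over the 12 libraries was most like each member were found by the root mean square difference of centred log2 CPM, among 11392 genes. The nearest to Osm were S100a9, a neutrophil protein gene (0.51 log2 units), and Il18rap (0.51). For Stat3 they were Mybbp1a (0.15) and Noc4l (0.17), for Osmr Fam49b (0.16) and Fosl2 (0.20), for Lifr Cyb5r3 (0.25) and Glce (0.26), for Il6st Gpr146 (0.107) and Tmem243 (0.115), and for Il6ra Nsa2 (0.113) and Mterf3 (0.115). For Lif they were Ptges (0.54), which encodes a prostaglandin synthase, and Parm1 (0.63), and for Il6 they were no closer than Adamts4 (1.05) and Il1rn (1.30). The libraries share organ and surgery, which set most of each pattern. With 2 in place of 0.5 added before the logarithm, other genes were nearest to Il6, Osm and Lif, and the second nearest to Osmr changed.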

How the data were processed

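RNA of whole lung and liver was measured in 12 libraries. Per the labels' protocols, tissue was kept in RNAlater and libraries were made with a stranded TruSeq kit for a NextSeq500. The authors deposited whole-number counts per gene, not normalized. Per the submitters' processing notes the tools were FastQC, STAR 2.7.10a, featureCounts and DESeq2 and the build was mm39. Not given in the sources used here are the annotation release, the strand setting and the treatment of multi-mapping reads.

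The test was that of edgeR 4.0.16 in R 4.3.3 (quasi-likelihood, robust, TMM scaling, filter by group at a minimum count of 10 and a total of 15), CLP against sham in 6 libraries per organ, and organs in 1 fit of 12 libraries. P-values were adjusted by Benjamini-Hochberg over all genes tested. CPM use each organ's own scaling. The SE is the fold change over the root of F, an approximation. Ratios of few counts use library totals, with 95% exact binomial intervals; 3 counts serve as floor. Intervals cover counting error only. Alternatives were RLE, upper-quartile and total scaling, no filter, DESeq2 1.42.0, limma-voom (limma 3.58.1), a replicate block, 1 fit of all libraries and leaving out each library. The test was checked on simulated data.

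Symbols came from a table that named 52081 of 55414 identifiers. Lengths and exon overlaps came from GENCODE M21, an older build. By it the exons of Il27, Ebi3, Il27ra, Il11ra1, Tyk2, Pias3, Adam17, Frmd8, Pim1, Cebpb and Il1b overlap a gene on the other strand. So do those of Adamts4, Nsa2, Mterf3, Tmem243, Cyb5r3 and Mybbp1a. The exons of Clcf1 and Glce overlap a gene on their own strand, and the values of all these genes are uncertain. The members, the 8 pathway lists and the 13 marker lists were chosen with earlier results of these data known. Named genes are the members, the 3 genes of lowest p per list and organ, the lowest-p gene against the majority, and the 2 genes most like each member; only some are given in the text. Chi-square per degree of freedom between replicates was 5.28 to 37.6, so no pair was 1 library.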

Additional observations from a re-analysis of the deposited data

Results flagged for a closer look

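Osmr and Lifr drew attention because their response to CLP differed between lung and liver in the test of the difference itself, edgeR on 12 libraries with Benjamini-Hochberg adjustment. The log2 change of Osmr was 0.60 higher in lung than in liver (adjusted p = 0.0391), with every CLP library above every sham library in both organs. The log2 change of Lifr was -1.25 in lung minus liver (adjusted p = 0.0156), with every CLP library below every sham library in lung and overlapping groups in liver. The 2 genes are neighbours on chromosome 15. The cause of either difference was not tested.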

How the results depend on the processing

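Il6, Osm, Il6st, Osmr, Lifr and Stat3 in lung, and Il6, Osm, Osmr and Stat3 in liver, kept their direction and their call under all 14 alternatives. Of 210 member values under alternatives, 197 kept both. The cause of the exceptions was not tested.

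Lif in lung missed the threshold under limma-voom (log2 fold change 1.32, adjusted p = 0.0520) and ran from 1.06 to 1.85 when 1 library was left out. Lifr in liver, near 0, was -0.083 with upper-quartile scaling, -0.18 with library totals, -0.019 with limma-voom and -0.022 with the replicate block, and -0.24 to 0.22 without 1 library. Il6ra in liver ran from 0.25 to 0.47 when 1 library was left out, and from 0.12 to 0.47 over all 14 alternatives. With no low-count filter Lif in liver could be tested and 5 members rose there, and the Lifr difference between organs of -1.25 was not called (adjusted p = 0.0662), which left 0 lower calls. DESeq2 called Osm (-3.26, adjusted p = 0.0483) beside Lifr, 2 lower calls. Without 1 library the difference between organs ran from 0.47 to 0.76 for Osmr, -1.49 to -0.92 for Lifr, -4.69 to -4.18 for Osm and -1.14 to 4.24 for Il6, with 0 to 1 higher and 0 to 2 lower calls.

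For sham levels between organs, 6 members were higher and 1 lower with library totals, 2 were lower with upper-quartile scaling and 2 with no filter, and 3 with RLE scaling, DESeq2, the replicate block and 4 of the fits without 1 library, against 3 higher and 4 lower as scaled in the report. For CLP levels library totals gave 6 higher and 1 lower, against 3 and 3. Reversed sham differences on library totals were 0.11 for Il6, 0.75 for Il6ra, 1.01 for Il6st and 0.65 for Lifr, and the CLP difference of Il6ra was 0.72. Without 1 library the sham difference of Il6 ran from -3.15 to 2.21, the CLP difference of Il6st from -0.051 to 0.16, the liver change of Il27ra from -0.39 to 0.10, and the log2 ratio of Lifr to Il6st in liver from -0.49 to 0.038.

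Replicate numbers do not mark a shared mouse or batch in the labels, and same-numbered libraries deviated together little (r from -0.01 to 0.04 between lung groups and 0.03 to 0.08 between liver groups; 4 of 6 and 6 of 6 libraries correlated best with their own number). Between lung and liver r ran from 0.03 to 0.11 after CLP (6 of 6 best with their own number). After sham it ran from -0.01 to 0.06 (4 of 6 best with their own number). CLP libraries of different number had r from -0.11 to 0.005 between the organs. Whether same-numbered libraries share a mouse is not settled by these values, and the main tests between organs treated all 12 libraries as independent. The replicate block left 6 members higher and 1 lower in lung and 4 higher in liver. For the response between organs the block was instead by surgery and replicate number together. It left 1 member higher and 1 lower. Depth limits the ligands in liver, where 1 to 24 counts stand behind each CLP value.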
